A study of Rattus norvegicus with 12 samples.

Results

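The cells described here were hepatocytes caught whole and read deeply in liver suspensions that had been prepared to hold immune cells. Members were barcodes of the 2 immune-enriched matrices with at least 20000 UMIs (unique molecular identifiers, each read as 1 captured RNA molecule), at most 50% of UMIs in genes whose symbol starts with Mt- (mitochondrial transcripts), at least 1% of UMIs in Alb, the gene of serum albumin, and under 0.3% of UMIs summed over the macrophage genes Cd5l, Clec4f, Vsig4, C1qa, C1qb and C1qc. That rule kept 844 of 11505 barcodes, namely 113 of 4690 in the DA library and 731 of 6815 in the LEW library, out of 270029 barcodes in the whole series. Members were thus chosen by measured values (UMI number, mitochondrial share, Alb and the macrophage genes), and those values are given below as a description.

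The study set single-cell, single-nucleus and spatial libraries of healthy rat liver side by side. DA (Dark Agouti) and LEW (Lewis) are inbred rat strains, and both immune-enriched suspensions came from healthy male rats that carried no engineered allele and received no treatment. The liver was digested with collagenase, parenchymal cells were spun out at low speed, the supernatant was washed again and red cells were depleted. The hepatocytes below are thus those left after a step meant to remove hepatocytes. Each strain gave 1 such library, so strain, animal and preparation cannot be told apart in them, and no p-value is given for LEW beside DA in these cells. The labels do not give the age of these animals. Total liver homogenate (TLH, the suspension before enrichment; male, 2 DA and 2 LEW libraries, from rats of 8 to 10 weeks in the series' design text, an age the study's article gives as higher), nuclei (2 DA and 2 LEW libraries) and 2 spatial (Visium) sections of Wistar liver are used below for comparison.

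Hepatocytes make the plasma proteins, clear ammonia and drugs, and store and release glucose. They divide this work along the path of blood from the portal vein to the central vein. Periportal cells are known for urea synthesis, gluconeogenesis and amino acid breakdown, with Sds (serine dehydratase) and Hal (histidine ammonia-lyase) among their genes, and pericentral cells for drug metabolism through enzymes such as Cyp2e1. The layer next to the central vein holds Glul (glutamine synthetase), which fixes ammonia that escaped the urea cycle, and Wnt signals from the central vein are known to maintain this layer.

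Sequencing depth per member was high in both libraries. UMIs per member ran from 26317 through a median of 40502 to 82819 in DA and from 20011 through 40088 to 122568 in LEW. Genes detected per member had medians of 4029 and 3996. The mitochondrial share had medians of 34.9% in DA and 29.9% in LEW. Members held 9.71% of the 48255870 UMIs of the DA library and 49.1% of the 60005133 of the LEW library. In DA, 674 deep barcodes were kept out by the mitochondrial limit, against 65 in LEW. Their median mitochondrial share was 86.6% in DA and 79.8% in LEW, and their median Alb share 0.0928% and 0.394%. Just inside and just outside the UMI limit lay barcodes of 26317 and 18759 UMIs in DA and of 20011 and 19879 in LEW. For Alb the corresponding shares were 1.17% and 0.919% in DA and 1.04% and 0.903% in LEW, and for the mitochondrial share they were 49.8% and 50.7% in DA. In LEW both mitochondrial values rounded to the limit of 50%, and the macrophage shares on either side of their limit were 0.250% and 0.647%.

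Genes that the rule did not use gave the members a hepatocyte profile. Levels are in CPM, which here are UMIs summed over the members of a library and scaled to a total of 1000000 outside the Mt- genes. Apoc3, an apolipoprotein of triglyceride-rich particles, stood at 11533 in DA and 23208 in LEW. Pck1, the entry enzyme of gluconeogenesis, stood at 5220 and 5784. Cyp4a2, a fatty acid omega-hydroxylase, stood at 2319 and 770, and was found in 100% of DA and 83.7% of LEW members. Markers of other liver cells were low: the endothelial list summed to 48.9 in DA and 33.7 in LEW, the mesenchymal list to 11.4 and 10.6, and the leukocyte list to 7.49 and 8.15. Ptprc, the pan-leukocyte phosphatase, was at 0 in DA, Clec4g (sinusoidal endothelium) and Dcn (mesenchyme) were at 0 in both libraries, and the cholangiocyte keratin gene Krt19 was at 0 in both, although the cholangiocyte list summed to 70.4 and 47.4. The rest of that list in DA was Epcam, Anxa4 and Sox9, and Epcam was seen in 52.2% of DA and 34.1% of LEW members against 1.17% and 1.65% of leukocyte barcodes. Anxa4 had 38.8 and 31.4 CPM in members against 59.8 and 48.5 in leukocyte barcodes, which is the opposite order. The erythroid list summed to 19.9 in DA and 139 in LEW, and 2 LEW members had 1% or more of their UMIs in haemoglobin genes. Scrublet, a doublet caller, marked no member. It marked 4 of 1163 DA barcodes (0.344%) and 27 of 2677 LEW barcodes (1.01%) in all.

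Promoters of the genes on which the zonal results turn are printed from RefSeq on GRCr8 as the 250 bases before the annotated start, 5′ to 3′ on the gene's own strand. Cyp2e1 (chr1:205269717-205269966, + strand) and Glul (chr13:68519250-68519499, + strand) are the pericentral anchors. Rgn (chrX:4187958-4188207, - strand) and Sult1e1 (chr14:20701230-20701479, + strand) had the highest correlations with Cyp2e1, and Etnppl (chr2:221846960-221847209, + strand) the highest with Sds. Capitals mark matches to CTTTGAT (TCF/LEF, the factors of Wnt signalling), CAAAGTC (HNF4), GTTAAT (HNF1) or TGACGT (CRE core), searched on both strands.
Cyp2e1: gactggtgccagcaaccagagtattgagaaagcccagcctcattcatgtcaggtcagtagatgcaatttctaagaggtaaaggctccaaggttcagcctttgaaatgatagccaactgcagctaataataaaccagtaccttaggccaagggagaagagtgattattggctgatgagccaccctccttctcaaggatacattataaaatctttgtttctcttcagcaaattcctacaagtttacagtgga
Glul: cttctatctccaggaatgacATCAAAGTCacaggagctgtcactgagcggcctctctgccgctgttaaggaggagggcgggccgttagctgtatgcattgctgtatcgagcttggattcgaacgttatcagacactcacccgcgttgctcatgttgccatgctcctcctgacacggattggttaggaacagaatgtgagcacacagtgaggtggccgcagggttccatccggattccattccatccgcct
Rgn: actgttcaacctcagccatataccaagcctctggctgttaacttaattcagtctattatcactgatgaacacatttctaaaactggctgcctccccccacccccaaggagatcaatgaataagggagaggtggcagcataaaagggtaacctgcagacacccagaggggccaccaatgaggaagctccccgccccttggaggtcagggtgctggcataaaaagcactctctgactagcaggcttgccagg
Sult1e1: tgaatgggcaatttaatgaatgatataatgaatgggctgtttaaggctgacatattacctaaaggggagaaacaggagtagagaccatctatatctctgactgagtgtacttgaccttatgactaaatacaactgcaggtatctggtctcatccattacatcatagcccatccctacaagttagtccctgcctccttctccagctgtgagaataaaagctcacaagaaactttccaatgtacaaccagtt
Etnppl: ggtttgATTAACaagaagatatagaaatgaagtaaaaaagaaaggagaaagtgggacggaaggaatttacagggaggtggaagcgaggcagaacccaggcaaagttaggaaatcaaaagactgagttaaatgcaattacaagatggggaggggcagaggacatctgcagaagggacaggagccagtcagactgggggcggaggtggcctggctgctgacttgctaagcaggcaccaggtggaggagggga
In Glul the TCF/LEF match began 230 bases and the HNF4 match 228 bases before the start, and these overlap. In Etnppl an HNF1 match began 244 bases before the start. Of 27457 rat promoter windows of this length, 3.18% held the TCF/LEF letters, 3.95% the HNF4 letters, 6.46% the HNF1 letters and 7.25% the CRE core. Of the 66 genes that rose with Cyp2e1 (below), 48 had a promoter entry, and 2, 1, 6 and 1 of these held the respective letters. Of the 39 that fell, 29 had an entry, and 1, 3, 4 and 1 held them. A match to such short letters describes the sequence and does not show that a factor binds there.

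Cyp2e1 varied widely from cell to cell. Counts of each cell were scaled to 10000 UMIs outside the Mt- genes. Cyp2e1 ran from 0 through a median of 7.14 to 37.0 in the DA cells and from 0 through 6.36 to 79.3 in the LEW cells, and its 10th and 90th percentiles were 0.657 and 23.8 in DA and 0.456 and 24.0 in LEW. The 2 libraries thus covered nearly the same range outside their extremes. Sds had a median of 0 and a maximum of 6.62 in DA and a median of 1.05 and a maximum of 12.2 in LEW. Hal had medians of 0.714 and 1.11 and maxima of 3.81 and 6.003. Glul behaved differently from these genes, with a median of 0 in both libraries, a maximum of 19.9 in DA and 71.5 in LEW, and 75% of DA and 93.8% of LEW Glul UMIs in the top 10% of cells.

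Free RNA was gauged in leukocyte barcodes of the same libraries (512 in DA and 363 in LEW, with median depths of 4485 and 6578 UMIs). They were chosen to have UMIs of at least 3 of 10 leukocyte genes and under 1% of UMIs in Alb. That choice left out barcodes rich in hepatocyte RNA, so the values can understate free RNA. A Cyp2e1 UMI was seen in 4.88% and 34.7% of these barcodes against 96.5% and 93.4% of the hepatocytes. For Sds the shares were 0% and 2.48% in leukocyte barcodes against 46.9% and 72.6% in hepatocytes, and for Hal 0.977% and 5.79% against 73.5% and 88.6%. These shares also depend on depth, which was lower in leukocyte barcodes. In CPM, Cyp2e1 stood at 9.58 and 53.6 in them against 1069 and 931 in hepatocytes. Sds stood at 0 and 2.89 against 62.2 and 172, and Hal at 1.92 and 8.67 against 84.1 and 127. Glul was seen in more leukocyte barcodes (31.6% and 53.2%) than hepatocytes (26.5% and 22.2%) and stood higher in them, at 241 and 501 CPM against 24.8 and 68.9, so leukocyte barcodes give no background level for Glul. The share of hepatocytes with a Glul UMI is therefore not read as expression, and Glul is described by its level per cell.

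Cyp2e1 on the one side and Sds and Hal on the other went in opposite directions, and Glul was only weakly tied to them. Correlations are Pearson's r of log-scaled expression over the 113 DA and the 731 LEW cells separately. Cells of a library share their animal, preparation and sequencing depth, so r is a description and carries no p-value. Cyp2e1 and Sds had r of -0.51 in DA and -0.41 in LEW, and Cyp2e1 and Hal had r of -0.54 and -0.26. Sds and Hal went together, with r of 0.44 and 0.34. Glul had r of 0.24 and 0.23 with Cyp2e1, -0.13 and -0.18 with Sds and -0.25 and -0.22 with Hal. Without the Glul-rich cells described below, which were chosen by Glul, r with Cyp2e1 was 0.25 and 0.12 and with Hal -0.27 and -0.11. The sign of each of the 6 pairs was shared by the 2 libraries. Depth moved little with the anchors, whose r with the log UMI number lay within 0.0884 of 0.

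**Figure D1:**
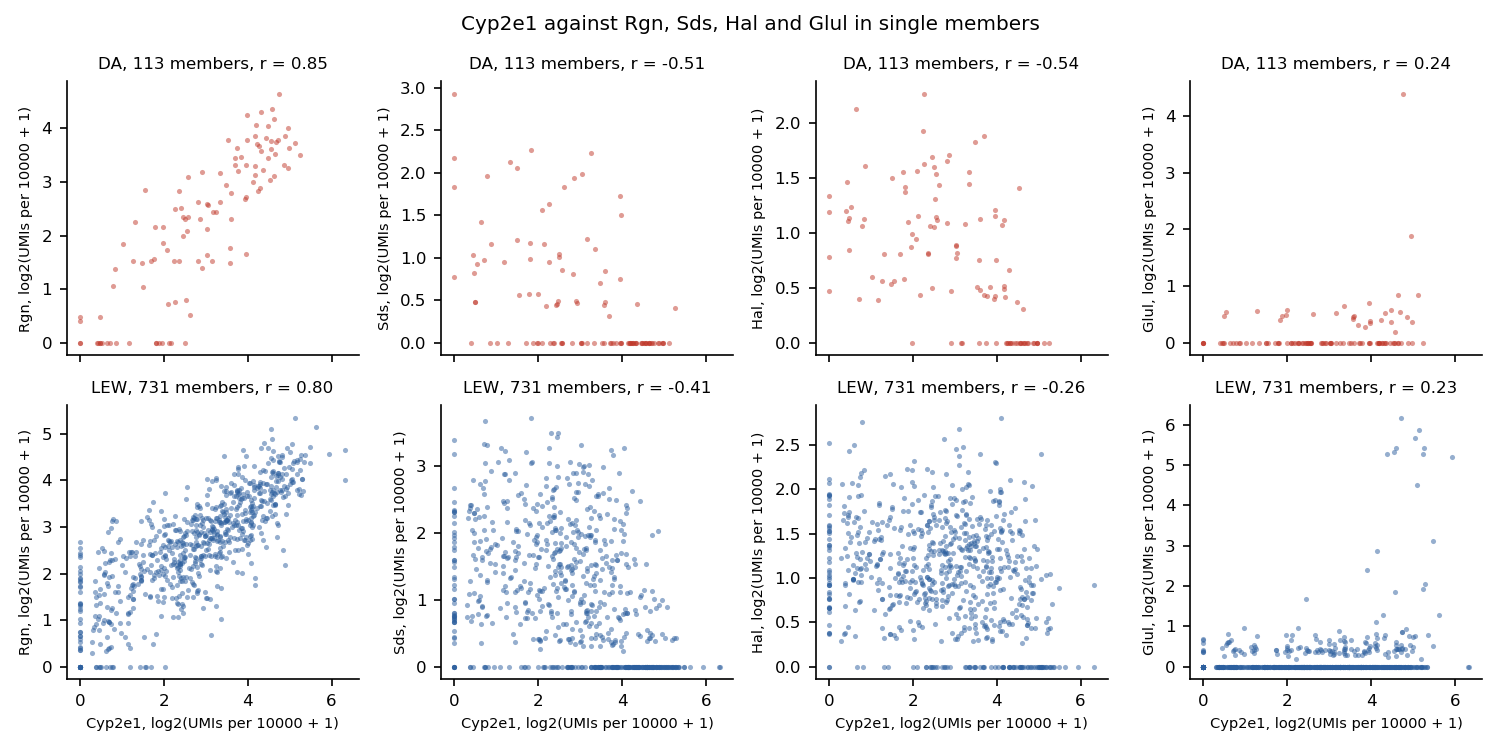
Each point is 1 hepatocyte (113 DA in the upper row, 731 LEW in the lower), with Cyp2e1 on the horizontal axis and Rgn, Sds, Hal or Glul on the vertical axis, as log2(UMIs per 10000 + 1). Rgn climbs with Cyp2e1 (r of 0.85 and 0.80), high Sds and Hal lie mainly at low to middle Cyp2e1 (r from -0.54 to -0.26), and high Glul stands in a few cells of high Cyp2e1.

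Genes that rose with Cyp2e1 were led by known pericentral enzymes. Of 5729 genes seen in at least 20% of the members of each library, 66 had r of 0.3 or more with Cyp2e1 in both, which is 1.15% of those tested. Rgn (regucalcin, a lactonase of the vitamin C route) was first, with r of 0.85 in DA and 0.80 in LEW. Sult1e1, the oestrogen sulfotransferase, followed with 0.83 and 0.76. Gulo, the last enzyme of vitamin C synthesis in rats, had 0.76 and 0.68, and Cyp1a2, a cytochrome that oxidises caffeine, 0.74 and 0.61. Enzymes of conjugation and drug oxidation were also among the first 10, Ugt1a5 with 0.70 and 0.65 and Cyp2c22 with 0.66 and 0.68. LOC259244 (RefSeq Mup4l4), a major urinary protein gene, had r of 0.74 and 0.64. Major urinary protein genes are near copies of each other, so how reads were shared among them is uncertain. LOC501233 (0.78 and 0.71), LOC100910877 (0.64 and 0.72) and LOC100360095 (0.73 and 0.62) made up the rest.

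Genes that fell as Cyp2e1 rose were fewer. In both libraries 39 genes had r of -0.3 or less, or 0.681% of those tested. Wfdc21, a small secreted protein, was lowest with r of -0.73 in DA and -0.58 in LEW. Spink1l, a protease inhibitor, had -0.63 and -0.66. Etnppl, an ethanolamine-phosphate lyase, had -0.70 and -0.54, Gjb2, a gap junction connexin, -0.69 and -0.52, and Aspg, an asparaginase, -0.71 and -0.47. The r with Cyp2e1 was of the same sign in both libraries for 57.9% of the 5729 genes.

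**Figure D2:**
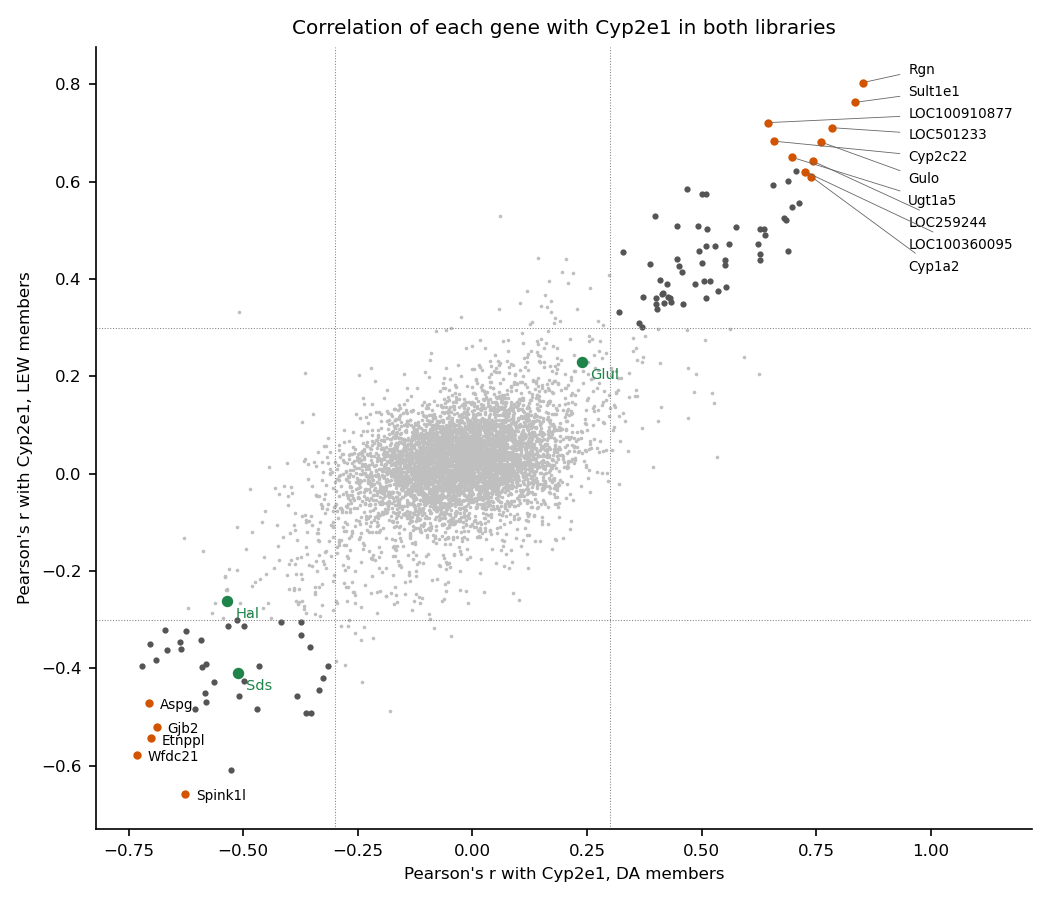
Each point is 1 gene of 5729, with its r with Cyp2e1 over 113 DA cells on the horizontal axis and over 731 LEW cells on the vertical axis; dark points pass 0.3 in both (dotted lines), orange points are named genes and green points the other anchors. Rgn (0.85, 0.80) and Sult1e1 (0.83, 0.76) lie at the upper right, and Wfdc21 (-0.73, -0.58) at the lower left.

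Metabolic groups took different places along the Cyp2e1 axis. The gene lists were chosen with earlier results of these data known, so the counts are a description. Of 14 pericentral genes tested, 11 had r of 0.3 or more in both libraries and none -0.3 or less, with a median mean r of 0.50 against 0.00072 over all genes. Glul, Aldh1a1 and Cpox did not reach 0.3 in both. Of 24 periportal genes, 10 had -0.3 or less and none 0.3 or more, with a median of -0.38. Among these were Pck1 (-0.70 in DA and -0.35 in LEW), Apoa4 (-0.58 and -0.47), Gls2, the liver glutaminase (-0.66 and -0.36), and Arg1, the arginase of the urea cycle (-0.62 and -0.32). The urea cycle did not move as a group: Arg1 and Ass1 of 8 genes reached -0.3 in both, while Cps1, which makes carbamoyl phosphate from ammonia, had -0.06 and 0.17 and Otc 0.15 and 0.17.

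Amino acid breakdown was split in a similar way. Of 26 genes, 7 had r of -0.3 or less in both libraries, led by the tryptophan dioxygenase Tdo2 (-0.60 and -0.48), while 2 had 0.3 or more, the tyrosine-route enzyme gene Hpd (0.33 and 0.46) among them. Of 19 cytochrome and conjugation genes 6 had 0.3 or more, Cyp2c6v1 (0.57 and 0.51) and Ugt2b1 (listed as Ugt2b17 and matched as a synonym, 0.40 and 0.53) among them, and Cyp2c7 had -0.42 and -0.31. The bile acid ligase Slc27a5 (0.66 and 0.59) was 1 of 3 of 9 bile acid genes that went with Cyp2e1. Scd, the fatty acid desaturase, was the sole one of 6 lipogenesis genes to do so (0.53 and 0.47). No gene of 17 for fatty acid oxidation, 15 for cholesterol synthesis or 15 of the immediate-early list passed 0.3 in both libraries in either direction, which with 1.15% and 0.681% of all genes passing does not set these lists apart. In the cholesterol list 13 of 15 had a negative r in both, all small, with a median of -0.14. Of 16 secreted protein genes 3 had -0.3 or less in both libraries, Alb (-0.50 and -0.43) among them, and none 0.3 or more. Alb was used in the choice of cells, so its r is a description. Orm1, an acute-phase glycoprotein, was the sole one of 13 acute-phase genes at -0.3 or less (-0.53 and -0.61).

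Of 25 amino acid breakdown genes tested, 6 had r of 0.3 or more with Sds in both libraries and 5 with Hal, and 1 had -0.3 or less with Hal. With Sds, 19 genes had r of 0.3 or more in both libraries (0.332% of those tested) and 27 had -0.3 or less (0.471%). Etnppl was first, with r of 0.50 in DA and 0.55 in LEW, followed by the amino acid transporter Slc38a4 (0.44 and 0.49), Pck1 (0.49 and 0.43), the sulfotransferase Sult2a6 (0.49 and 0.43) and Aspg (0.48 and 0.43). Bhmt, Ass1 and Got1, of methionine, urea and aspartate metabolism, were also in the first 10. Sult1e1 (-0.48 and -0.52), LOC501233 (-0.46 and -0.47) and Rgn (-0.51 and -0.42) were lowest.

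With Hal, 26 genes had r of 0.3 or more (0.454% of those tested) and 14 had -0.3 or less (0.244%). Hsd17b13, a lipid droplet protein, was first with r of 0.69 in DA and 0.39 in LEW. Slc38a4 (0.62 and 0.41), Sult2a6 (0.60 and 0.38), Alb (0.54 and 0.42, a gene that the choice of cells used) and Ass1 (0.50 and 0.40) followed. Fmo1, a flavin monooxygenase, was lowest with -0.65 and -0.42. Of 13 acute-phase genes 4 reached 0.3 with Hal in both libraries and none with Sds, while 9 and 7 of 23 periportal genes did so with Sds and Hal. For each of the genes just named, r with Hal lay farther from 0 in DA than in LEW.

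Most LEW Glul UMIs lay in a few cells. With Glul, 5 genes had r of 0.3 or more in both libraries (0.0873% of those tested) and 9 had -0.3 or less (0.157%). Tcn2, the vitamin B12 carrier transcobalamin, had r of 0.49 in DA and 0.53 in LEW, and Oat, the ornithine aminotransferase that feeds glutamate to glutamine synthesis, 0.32 and 0.60. Arg1 (-0.58 and -0.58), Ass1 (-0.53 and -0.59) and Cps1 (-0.44 and -0.58), all of the urea cycle, were the lowest. A limit of 3 Glul UMIs per 10000, chosen after the values were seen, set apart 14 LEW cells (1.92%) at 3.14 to 71.5 with a median of 38.0, of which 10 lay at 20 or more. These held 86.0% of LEW Glul UMIs. In DA 1 cell passed, at 19.9, with 52.6% of DA Glul UMIs. The nearest cells below the limit stood at 2.81 in LEW and 2.68 in DA. Leaving out the 15 Glul-rich cells takes the top off the range of Glul, which can itself lower r with Glul, so nothing is read from a lower value. The r with Glul then was -0.42 in DA and -0.18 in LEW for Ass1, -0.33 and -0.12 for Arg1, -0.20 and -0.06 for Cps1, 0.24 and 0.17 for Tcn2 and 0.28 and 0.27 for Oat. Signs stayed as they were for these 5 genes, and values moved toward 0 more in LEW, where 14 cells were left out, than in DA, where 1 was. Of 5718 genes tested without the 15 cells, 0 passed 0.3 with Glul in both libraries in either direction.

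The 14 Glul-rich LEW cells held more Oat, Rhbg and Cyp7a1 and less Ass1, Cps1 and Arg1 than the other LEW cells. Since Glul chose these cells, the values are a description, given as summed levels in CPM with a 95% counting interval of the ratio that covers counting error only. Oat stood at 2574 against 78.2 (32.9-fold, 30.4 to 35.6), Rhbg, an ammonium transporter, at 155 against 1.38, and Cyp7a1, the rate-limiting enzyme of bile acid synthesis, at 841 against 5.85 (144-fold, 116 to 179). Cyp1a2 was 12.1-fold and Cyp2e1 3.37-fold higher, and Rgn, the gene closest to Cyp2e1, 3.07-fold. The dicarboxylate transporter gene Slc13a3 was 18-fold higher, Pcp4l1 63.8-fold and Car2, a carbonic anhydrase, 32.9-fold.

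In the same cells the urea cycle split by enzyme. Ass1 stood at 80.1 against 1142 CPM, Cps1 at 358 against 2481 and Arg1 at 115 against 834, while Otc stood at 348 against 558 and Asl at 188 against 162, a ratio of 1.16 whose interval (0.911 to 1.46) includes 1. Sds had 5.01 against 175 and was at 0 in 12 of 14 cells. Cyp4a2 stood at 10.0 against 785 and was at 0 in 10 of 14, and no UMI of Etnppl, Aspg or Cyp2c7 was counted in the 14 cells. The 2 highest ratios of 1359 genes compared were those of Pbsn and Lox. Pbsn, a lipocalin, summed to 1567 against 0.590 but was at 0 in 10 of 14, and Lox, lysyl oxidase, to 491 against 0.787 (624-fold) and was at 0 in 4 of 14. Haemoglobin transcripts summed higher in the group, LOC689064 (Hbb-bs) at 2699 against 86.5. Over all LEW cells, however, the LEW to DA ratio of LOC689064 fell from 23.3 to 3.46 without the 2 haemoglobin-rich cells. The sum can thus rest on 1 cell and is not read as a trait of the 14. The part of haemoglobin transcripts in the other values was not tested. Median depth was 35414 UMIs against 40157 and the mitochondrial share 25.6% against 30%. The single DA cell had 6 UMIs of Rhbg, 17 of Cyp7a1, 20 of Oat and 20 of Pcp4l1, and none of Arg1, Tdo2, Sds or Hal. It had no UMI of Pbsn, like 10 of the 14 LEW cells, and none of Lox, like 4 of them. It had 21 UMIs of Cyp4a2 (1045 CPM against 2328 in the other DA cells), where the LEW group summed to 10.0 CPM.

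**Figure D3:**
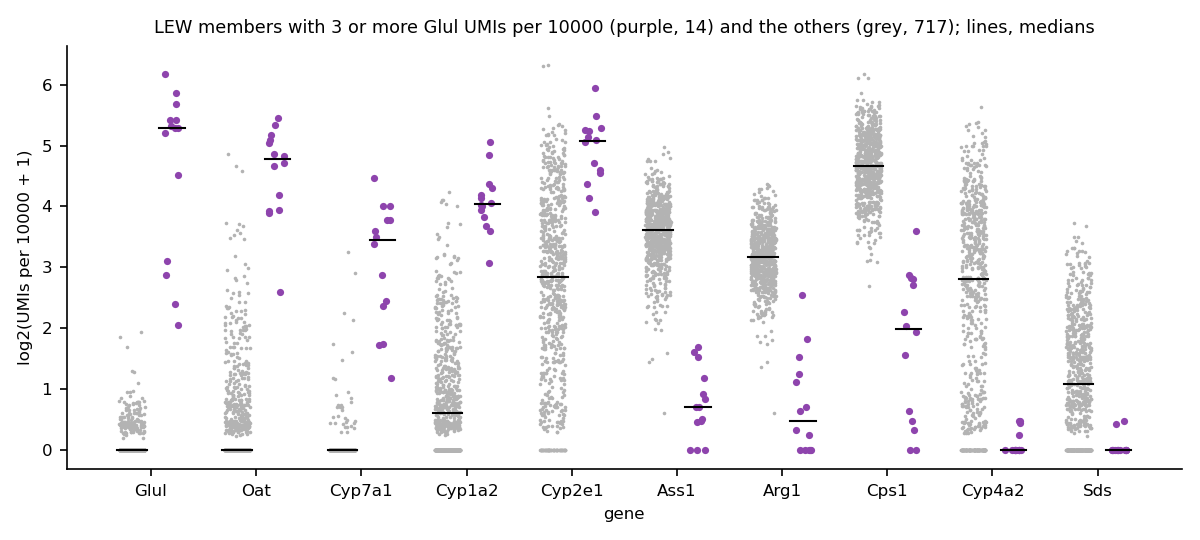
Each point is 1 LEW hepatocyte, Glul-rich (purple, 14) or other (grey), with its level of 10 genes as log2(UMIs per 10000 + 1) and a line at each median. The purple median is higher for Oat (26.3 UMIs per 10000 against 0) and lower for Ass1 (0.630 against 11.2).

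In a principal component analysis of 5730 genes, the first component held 7.94% of variance and set LOC100360095, the ferritin genes Ftl1 and Fth1 and ribosomal genes against plasma protein genes such as Apoa1, Orm1 and Ambp. Its r with the mean log-scaled level of the ribosomal genes, themselves part of the analysis, was 0.89 in DA and 0.81 in LEW. Its r was 0.27 and 0.39 with Cyp2e1 and -0.40 and -0.32 with Hal. In the second component, with 5.50%, LOC100360095 again came first (loading 0.309), ahead of LOC259244 (0.159), Sult1e1, Cyp2e1 and Rgn at 1 end, with Cyp4a2, Sult2a6, Bhmt, Wfdc21 and Hsd17b13 at the other. Its r was 0.79 and 0.63 with Cyp2e1 and -0.47 and -0.47 with Sds. The third held 3.09%. Depth and the mitochondrial share were tied unevenly to the components. In DA and LEW, r with the log UMI number was -0.19 and 0.13 for the first, 0.26 and 0.02 for the second and -0.29 and -0.55 for the third. With the mitochondrial share, r was 0.30 and 0.07, -0.29 and -0.28, and 0.40 and 0.41. The part of depth and of the mitochondrial share in the components was not tested.

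For levels along the axis, cells of each library were ordered by the z-score of Cyp2e1 minus the mean z-score of Sds and Hal and cut into a periportal, a middle and a pericentral tercile, of 38, 37 and 38 DA cells and 244, 243 and 244 LEW cells. The cut divides a range and does not define types, and 9 DA and 57 LEW cells lay within 0.1 of a limit. Since the 3 genes made the order, and every gene comes from the same cells, the ratios that follow are a description. Of 3723 genes with at least 20 CPM in each library, 76 (2.04%) were 1.5-fold or more higher in the pericentral tercile of both libraries and 70 (1.88%) in the periportal tercile. The terciles had like depths, with medians of 38597 to 41450 UMIs in DA and 38001 to 41609 in LEW.

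Pericentral genes rose by several fold from the periportal to the pericentral tercile. Rgn stood at 129, 468 and 1180 CPM in the periportal, middle and pericentral DA terciles and at 289, 567 and 1266 in LEW. Oat went from 28.4 through 85.03 to 437 in DA and from 16.2 through 27.1 to 337 in LEW, a pericentral to periportal ratio of 15.4 and 20.8. Its step lay mainly between the middle and pericentral terciles, whereas Rgn climbed at both. In LEW, Oat stood at 2574 CPM in the 14 Glul-rich cells and at 78.2 in the other cells. The part of the Glul-rich cells in the LEW step was not tested. Cyp7a1 was steeper still, at 0, 30.01 and 346 in DA and 0.435, 0.287 and 65.5 in LEW. In LEW 336 of its 455 UMIs lay in the 14 Glul-rich cells, and the other LEW cells stood at 5.85. Of 15 pericentral genes 12 were 1.5-fold or more higher in both libraries, with median ratios of 4.10 and 3.58 against 0.958 and 1.07 over all genes. The constitutive androstane receptor gene Nr1i3 (3.24 and 3.58) and the dioxin receptor gene Ahr (4.10 and 4.05) were among them. The 3 major urinary protein genes listed were also higher, LOC259244 by 9.04 and 3.94.

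Periportal genes showed smaller ratios. Of 21 compared, 9 were 1.5-fold or more lower in the pericentral tercile of both libraries, and the median ratio was 0.470 in DA and 0.699 in LEW. Etnppl stood at 281, 185 and 36.0 in DA and 241, 146 and 57.3 in LEW, with the larger fold change between the middle and pericentral terciles. Ass1 went from 1521 through 1327 to 930 in DA and from 1338 through 1135 to 890 in LEW. Cps1 stayed nearly level, with ratios of 0.970 and 1.15. Hsd17b13 differed between the libraries in size, with a ratio of 0.120 in DA and 0.650 in LEW, and so did Cyp2c7 with 0.0379 and 0.531. Scd was higher in the pericentral tercile (ratios of 4.29 and 4.69). Alb was lower there (0.588 and 0.566), which is a description only, since the choice of cells used Alb. When both libraries were ordered on 1 scale and cut jointly, the terciles held 23.0%, 31.9% and 45.1% of DA and 35.0%, 33.5% and 31.5% of LEW cells from periportal to pericentral, and with 1 library a strain that shift was not tested.

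**Figure D4:**
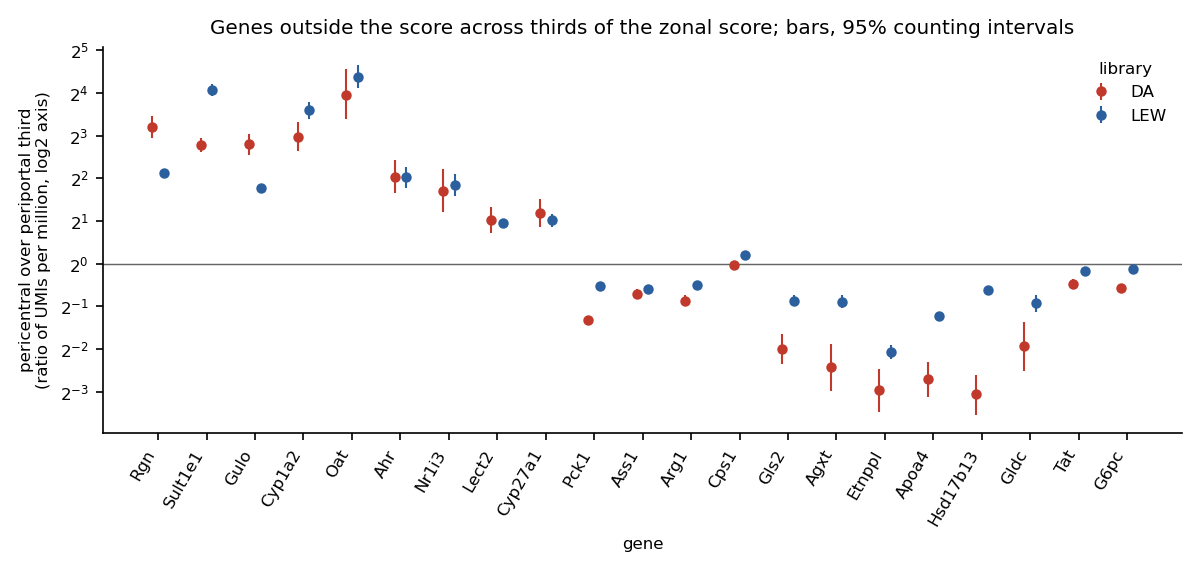
Points give the ratio of CPM in the pericentral to that in the periportal tercile for 21 genes in DA (red) and LEW (blue), on a log2 axis with 95% counting intervals as bars. Oat (15.4 and 20.8) lies far above 1, Cps1 (0.970 and 1.15) near 1 and Etnppl (0.128 and 0.238) far below it.

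The same correlations were computed in shallower barcodes and in the other libraries. Median depth was 1777 to 2510 UMIs in TLH, 1442 to 1678.5 in nuclei and 13796 and 14344 in Visium. The deep hepatocytes had medians of 40502 and 40088. Thinning the deep hepatocytes to 2000 UMIs moved r of Cyp2e1 with Sds and of Sds with Hal toward 0 (below). The sizes of r are therefore not compared between kinds of library. In barcodes of the same libraries that met the other limits but had at least 1000 but under 20000 UMIs, r of Cyp2e1 with Sds was -0.16 over 46 DA cells and near 0 over 1055 LEW cells. It lay between -0.02 and -0.09 in the 4 TLH libraries, between -0.18 and -0.47 in the 4 nuclei libraries and at -0.21 and -0.24 in the 2 Visium sections, where a spot holds several cells. The r of Sds with Hal was 0.33 and 0.03 in the shallower DA and LEW cells, at most 0.03 in TLH, 0.25 to 0.58 in nuclei and 0.17 and 0.19 in Visium (0.44 and 0.34 in the deep hepatocytes). Of the 66 genes that rose with Cyp2e1 in the deep hepatocytes, 66 had a positive r in both Visium sections, against 42.5% of all 5729 genes, 53 in all 4 nuclei libraries (against 13.4%) and 50 in all 4 TLH libraries (against 14.3%). Of the 39 that fell, 38 were negative in both Visium sections (against 21.2%), 25 in the nuclei (against 44.5%) and 18 in TLH (against 20.9%). In the shallower cells of both immune-enriched libraries 57 of the 66 were positive (against 37.7%) and 10 of the 39 negative (against 15.3%), and the median r of the 39 in LEW was 0.039. Cyp1a2 had r of 0.12 to 0.16 in TLH, 0.21 to 0.31 in nuclei and 0.31 and 0.42 in Visium. Rgn, first in the deep hepatocytes, had -0.01 to 0.05, 0.12 to 0.24 and 0.37 and 0.41 in the same order. Cyp7a1, Oat and Rhbg went with Glul in Visium as well, with r of 0.20 to 0.39, and in nuclei, with 0.13 to 0.27, and had 0.04 to 0.10 in TLH. Other genes high in the Glul-rich LEW cells (above) were uneven in the DA nuclei. Pcp4l1 had r with Glul of 0.32 and 0.19 there and Slc13a3 0.21 and 0.16, whereas Car2 had 0.023 and 0.015. Lox had -0.006 and -0.012, from 0.053% and 0.213% of barcodes, and no UMI of Pbsn was counted.

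LEW beside DA, 227 genes were 2-fold or more apart in the summed hepatocytes. Of 4253 genes with at least 20 CPM in either library, 85 were higher in LEW (2% of those compared) and 142 in DA (3.34%). The median log2 ratio of LEW to DA over all genes was -0.11, and scaling by TMM factors, which moved it to 0.04, gave 107 genes in each direction. These are single libraries, and the intervals below cover counting error only. Named genes come from the first 10 in each direction with 100 or more CPM in the higher library.

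Genes higher in LEW were led by LOC100360791 (RefSeq Tpt1l3), at 0.326 CPM in DA, from 1 UMI, against 159 in LEW, where 94.4% of cells had it. Its symbol marks a relative of Tpt1, so the sharing of reads between copies is uncertain. Socs2, a brake on growth hormone signalling, stood at 19.2 in DA and 159 in LEW (8.29-fold, 6.41 to 10.9). Slc35c2, a nucleotide-sugar transporter gene, stood at 16.6 and 131, and RGD1307603 at 75.6 and 461. Apoa4, an apolipoprotein, stood at 181 and 994 (5.48-fold, 5.04 to 5.97), and in single cells its median was 0.815 per 10000 in DA and 7.84 in LEW. Gadd45a, a stress-induced growth arrest gene, Mt2A, a metallothionein, and Hsd17b2 were 5.47-, 4.08- and 4.08-fold higher. LOC689064 (Hbb-bs) was 23.3-fold higher, but 47.6% of its LEW UMIs lay in 1 cell, and the ratio ran from 3.07 to 51.3 over the alternatives, with 3.46 once haemoglobin-rich cells were left out. Hba-a2, another haemoglobin gene, stood at 1877 CPM in DA and 6558 in LEW leukocyte barcodes against 18.2 and 127 in the hepatocytes, and the part of free RNA was not tested.

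Genes higher in DA were led by Mlc1, a membrane protein gene, at 106 CPM in DA against 0.241 in LEW, from 5 UMIs. It was seen in 89.4% of DA and 0.684% of LEW cells. Ces2e, a carboxylesterase, stood at 179 and 3.28. Cdkn1a, an inhibitor of the cell cycle, stood at 137 and 14.3, Tsc22d3, a glucocorticoid-induced gene, at 275 and 38.6, and the class I histocompatibility gene RT1-A2 at 202 and 27.5. RT1 genes are near copies that differ between strains, so the level of RT1-A2 is uncertain. Cth, which makes cysteine, stood at 2251 and 564, with medians in single cells of 22.6 and 5.42 per 10000. Ehhadh, of peroxisomal fatty acid oxidation, had 272 and 66.3, the glycogen regulator Ppp1r3c 169 and 41.8, and Ces1d 391 and 111. Cyp7a1 was 132 in DA and 21.9 in LEW, from 31.0% and 6.70% of cells. Its ratio of LEW to DA was 0.166. The ratio was 0.348 in a random draw of as many LEW as DA cells from each joint tercile (26, 36 and 51). That draw used 113 of 731 LEW cells, so its value can depend on which Glul-rich cells were drawn. Outside the Glul-rich cells Cyp7a1 stood at 127 in DA and 5.85 in LEW, so 14 LEW cells carried most of the LEW level.

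**Figure D5:**
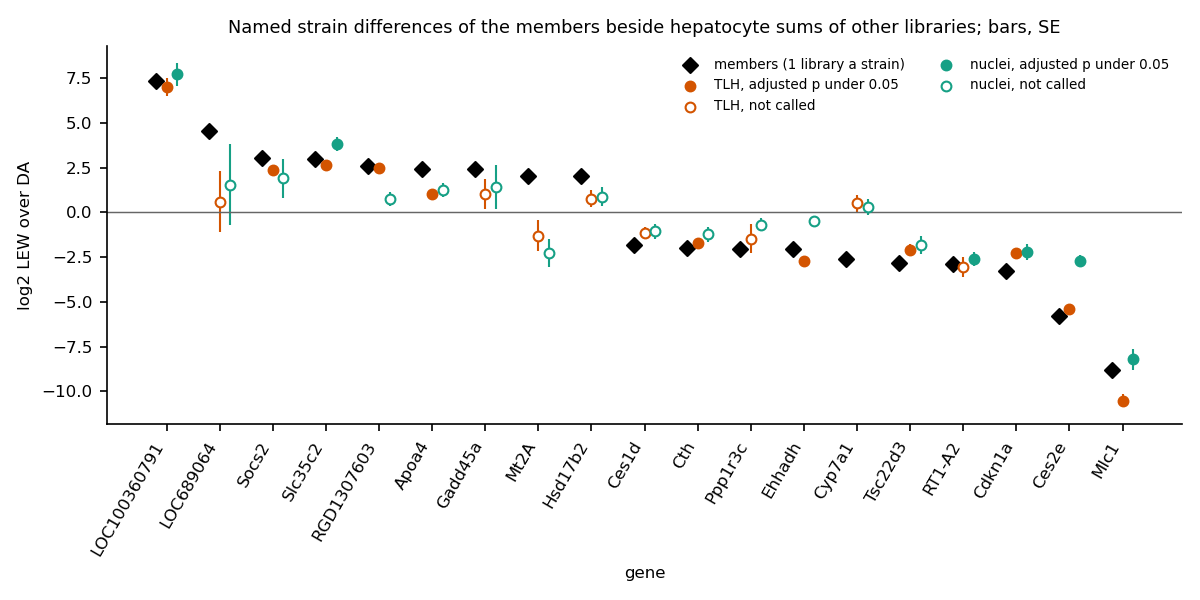
Diamonds give the log2 ratio of LEW to DA in the deep hepatocytes for named genes, and circles the log2 change in TLH (orange) and nuclei (green) hepatocyte sums with SE as bars, filled where the edgeR adjusted p was under 0.05. The 3 values lie close for Slc35c2 (2.98, 2.67 and 3.82), whereas Cyp7a1 (-2.59, 0.51 and 0.31) and Mt2A (2.03, -1.29 and -2.26) differ in sign.

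All 14 cholesterol genes compared lay lower in LEW, with a median log2 ratio of -0.80 against -0.11 over all genes, and 5 were 2-fold or more higher in DA. Beside these and the lists that follow, 2% of all 4253 genes compared were 2-fold or more higher in LEW and 3.34% in DA, while 36.4% lay above and 63.6% below a ratio of 1 (55.3% and 44.7% with TMM factors). Among the 5 were Insig1, a brake on sterol synthesis (1498 in DA and 484 in LEW), and the sterol enzyme genes Dhcr7 (193 and 76.7) and Lss (105 and 40.1). Of 17 pericentral genes 6 were 2-fold or more higher in DA, Ahr, Sult1e1, Cyp7a1, Cyp1a2, Aldh1a1 and Nr1i3, and with the TMM shift of 0.15 the last 3 were under 2-fold (ratios of 0.497, 0.473 and 0.492 before it). The single one higher in LEW was Glul, of whose LEW UMIs 86.0% lay in 14 cells. Without the Glul-rich cells it stood at 11.8 CPM in DA and 9.83 in LEW. Of 24 periportal genes 4 were higher in LEW (Sds, Hsd17b13, Aldh1b1 and Apoa4) and 2 in DA (G6pc and Tat). Of 15 secreted protein genes other than Alb, which the choice of cells used, 13 had a log2 ratio above 0, with Apoc3 2.01-fold higher in LEW. Rbp4 and Apob, at -0.09 and -0.07, lay above 0 too with the TMM shift of 0.15, which left each of the 14 cholesterol genes lower in LEW. Among transcription factor genes, Foxa2, Onecut1 and Xbp1 were higher in LEW and Cebpb, Nr0b2 and, short of 2-fold with the TMM shift, Nr1i3 in DA, of 13 compared. The cells of the 2 libraries were also spread differently over the joint terciles (above), and the part of that spread in the list values was not tested.

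Whether the differences of the deep hepatocytes recur in other libraries was asked in sums over hepatocyte barcodes of 2 DA and 2 LEW rats, once in TLH and once in nuclei, with edgeR's quasi-likelihood test and Benjamini-Hochberg adjustment. In TLH 298 of 10771 genes (2.77%) were called higher in LEW and 376 (3.49%) in DA at an adjusted p under 0.05, and in nuclei 94 (0.906%) and 131 (1.26%) of 10372. Leaving out the first DA library gave 1015 calls in TLH, and leaving out the first or the second LEW library 181 or 220. In nuclei the same counts were 107 or 363 without the first or second DA library and 89 or 352 without the first or second LEW library. Whether any of these rats also gave an immune-enriched library is not stated in the sources used here. Of the 85 genes higher in LEW hepatocytes, 47 were called higher in LEW and 0 in DA in TLH, and 23 and 0 in nuclei. Of the 142 higher in DA, 64 were called higher in DA and 3 in LEW in TLH, and 33 and 0 in nuclei. Among 4026 genes less than 2-fold apart, 2.63% and 3.08% were called in TLH, and 0.323% and 0.298% in nuclei, for LEW and DA respectively.

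Some strain differences held in every rat library. Mlc1 in TLH was 98.2 and 88.6 CPM in DA and 0 and 0.139 in LEW (log2 change of LEW against DA -10.52, edgeR adjusted p = 3.01e-06). In nuclei it was 411 and 190 against 0.677 and 1.49 (-8.20, edgeR adjusted p = 2.01e-07). With LEW this near 0, the size of the change is uncertain. LOC100360791 ran the other way, at 1.23 and 0.306 in DA and 73.8 and 105 in LEW in TLH (7.01, edgeR adjusted p = 0.00762). The 2 strains did not overlap for either gene. Slc35c2 had 12.3 and 12.8 in DA and 87.9 and 71.1 in LEW (2.67, edgeR adjusted p = 4.99e-05), and 3.82 in nuclei (adjusted p = 8.91e-06). Cyp4a2, a marker of the deep hepatocytes, had 899 and 1068 in DA and 108 and 55.0 in LEW in TLH (-3.58, edgeR adjusted p = 0.0297) and -4.00 in nuclei (adjusted p = 8.7e-05). Of the 227 genes 2-fold or more apart in the deep hepatocytes, among 4253 compared, 48 were called in the same direction in both sets. How many of the other genes were called in both sets was not counted, so 48 is not read as an excess. Among the 48, 22 were higher in LEW, Slc35c2 and Aldh1b1 among them, and 26 higher in DA, Ces2e, Cdkn1a and Nqo1 among them. Of these, Cdkn1a in nuclei was not called without the first DA, the first LEW or the second LEW library (edgeR adjusted p = 0.092, 0.409 and 0.272).

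Other named differences were called in 1 set, in neither, or only with a library left out. Cyp7a1 had 107 and 111 CPM in the DA and 216 and 93.1 in the LEW TLH libraries (0.51, edgeR adjusted p = 0.601), so the strains overlapped and the sign was opposite to that in the deep hepatocytes. Without the second LEW library it was called higher in LEW (1.00, edgeR adjusted p = 0.0285). Socs2 was higher in LEW in TLH, at 12.3 and 8.37 against 45.8 and 58.4 (2.35, edgeR adjusted p = 0.0011), but in nuclei 1 LEW library at 363 stood apart from 69.3 and 41.6 in DA and 55.5 in the other LEW library (adjusted p = 0.585). Without that other library Socs2 was called in nuclei too (2.72, edgeR adjusted p = 0.0118). Cth and Ehhadh were lower in LEW in TLH (-1.69 and -2.69, edgeR adjusted p = 0.000221 and 0.00427) and had -1.22 and -0.49 in nuclei (adjusted p = 0.179 and 0.531). Ehhadh was not called in TLH without the first or second LEW library (edgeR adjusted p = 0.122 and 0.12), and Cth was called in nuclei without the first LEW library (0.0467). For Apoa4 the log2 changes were 1.01 in TLH (edgeR adjusted p = 0.0453) and 1.27 in nuclei (adjusted p = 0.13), and the TLH call was lost without either LEW library (0.225 and 0.27) and with a limit of 1500 in place of 2000 UMIs in the LEW libraries (edgeR adjusted p = 0.0678). Gadd45a, Hsd17b2, Ppp1r3c, Ces1d and LOC689064 were called in neither set, with edgeR adjusted p from 0.146 to 0.877. Gadd45a was called higher in LEW in each set once the first LEW library was left out (0.0227 in TLH and 0.0144 in nuclei), and Ces1d lower in LEW in TLH without the first DA library (0.000301).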

How the data were processed

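RNA counts (UMIs per gene and barcode) of 12 rat liver samples were deposited; the authors made them from droplet libraries with Cell Ranger 3.1.0 and, for Visium, Space Ranger 1.1.0, without normalization. The immune-enriched and TLH matrices (32883 genes) came without gene names or barcode sequences, so names were taken row by row from the gene list of a nuclei library, checked only through marker genes, and barcodes shared with other libraries were not counted there. Samples were grouped by the strain and preparation in the labels. Members and gene lists (302 genes, 284 found) were chosen with earlier results of these data known. Each member was scaled to 10000 UMIs outside 13 Mt- genes and log-transformed for Pearson's r, and a gene entered where 20% or more of the members in each library had a UMI of it. Summed members gave CPM with exact 95% intervals. Named genes were, per anchor, the 10 highest and 5 lowest mean r of like sign, the 10 highest and 10 lowest strain ratios at 100 or more CPM, list members as examples and the 8 leading genes at each end of 3 components. A few genes that the rule picks are not reported here. Genes called in both sets of rats, the Glul-rich cells and the genes set beside them were chosen after their values were seen.

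Hepatocyte barcodes of TLH had at least 1500 (first DA library) or 2000 UMIs (second DA and both LEW libraries) and at most 30% (first DA), 20% (second DA) or 40% (LEW) mitochondrial UMIs. These are the limits in the study's methods except for the LEW UMI limit of 2000, which is stricter than the study's, and the study's limit of 1500 was run as an alternative. Barcodes of nuclei had 1000 UMIs or more and at most 10%, and both sets had the same Alb and macrophage limits as members. They numbered 3365 to 6416 per TLH and 1624 to 4657 per nuclei library, and 8 to 24 barcodes were shared by any pair of nuclei libraries. Their summed counts (TMM factors, filterByExpr) were tested with edgeR 4.0.16 in R 4.3.3, with DESeq2 1.42.0 as an alternative. The SE given is the absolute log2 change divided by the square root of the F statistic of the test, so it is approximate. In simulated data the TLH step recovered 89% of genes changed 2-fold and 100% of those changed 4-fold over 10523 genes, and the nuclei step 28% and 99% over 10156 genes. Per the study's methods the replicate libraries of each set came from separate rats, 2 per strain, so p-values measure the spread between rats together with their preparation. The deposited libraries of TLH and nuclei carry like animal numbers, although the study describes additional rats for nuclei, so the sets may not be independent. Same-numbered libraries did not deviate together and were not treated as pairs. Depth per member and the intervals cover counting error only. Alternatives were other limits for members, thinned counts, each library alone, other scalings and filters, a replicate block and each library left out. Python 3.11.15, scipy 1.17.1 and scanpy 1.11.5 were used.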

Additional observations from a re-analysis of the deposited data

Results flagged for a closer look

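Mt2A, a metallothionein gene, had opposite signs, LEW against DA, in the deep hepatocytes and in the nuclei libraries. It stood at 110 CPM in the DA and 451 in the LEW hepatocytes (4.08-fold higher in LEW), whereas in the nuclei sums every LEW library (66.6 and 158 CPM) lay below every DA library (883 and 191 CPM), with a log2 change of -2.26 (SE 0.80, edgeR adjusted p = 0.302). The difference between the 2 kinds of library was not tested, since the deep hepatocytes come from 1 library per strain. In TLH the strains overlapped, at 250 and 662 CPM in DA and 107 and 267 in LEW.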

How the results depend on the processing

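Of 96 recomputed values for the main comparisons, 73 stayed in the class of the main value and 23 did not. For a count the class weighed only its total, not which strain was higher. For r it asked for the same sign and a value inside an interval that treats cells as independent. The class is therefore a yardstick and no test. Scrublet marked no member, so leaving out doublets could change no value. Thinning each hepatocyte to 2000 UMIs took r of Cyp2e1 with Sds to -0.16 and with Hal to -0.11, took r of Sds with Hal to 0.030, and gave 7 genes past 0.3 with Cyp2e1 among 674 tested, against 105 of 5729. It also turned r of Sds with Ass1 to -0.033 and with Got1 to -0.018. Thinning to 20000 UMIs gave 0.30 for Sds with Hal. In the DA library alone 312 genes passed 0.3 with Cyp2e1, and in the LEW library alone 145. The r of Cyp2e1 with Hal was -0.54 in DA alone and -0.26 in LEW alone. A mitochondrial limit of 30% left 389 hepatocytes (21 of 113 DA and 368 of 731 LEW). The 227 genes 2-fold apart became 91 at 100 or more CPM and 4616 with no limit other than 1 UMI. Of the 2-fold genes, 37.4% were higher in LEW on the main scale, 50% with TMM or DESeq2 factors and 67.4% with no limit. Leaving out the Glul-rich cells or the rows named AY172581, both chosen after seeing the data, left the counts around Cyp2e1 and of 2-fold genes in the same class.

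In the rats, calls in TLH (674) became 1524 with no filter other than 1 UMI, 198 at an Alb limit of 2%, 471 (450 of them shared) with the study's LEW limit of 1500 UMIs, chosen after seeing the data, and 181 to 1015 with 1 library left out, and those in nuclei (225) became 545 with no filter and 89 to 363 with 1 library left out. With 1 library left out, the lone library of a strain is assumed to vary like the other strain's. LOC689064 in TLH went from 0.61 to -4.12 on the log2 scale at the Alb limit of 2%. Replicate numbers share only a number: deviations of same-numbered libraries correlated at -0.14 in TLH and -0.06 in nuclei. A replicate block gave 337 calls in TLH and 423 in nuclei, and the crossed pairing, chosen after seeing the data, 942 in TLH. Over the rat values of named genes, 355 stayed on their side of the threshold, 30 gained and 14 lost a call, and 1 reversed. Mlc1, Slc35c2, Ces2e and LOC100360791 were called in both sets under each of the 10 or 12 settings run. The causes of these changes were not tested. Strain rests on 1 library each in the deep hepatocytes, and counts of a few UMIs per cell limit r for Sds, Hal and Glul.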

Other observations

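Proliferation genes were concentrated in a few deep hepatocytes. Of 8 such genes (Mki67, Top2a, Cdk1, Ccnb1, Birc5, Ube2c, Cenpf and Stmn1), 4 or more had a UMI in 1 of 113 DA and 10 of 731 LEW hepatocytes, a limit chosen after the values were seen, while 90 DA and 463 LEW hepatocytes had none of the 8. The DA cell, of 46970 UMIs, held 21 UMIs of Mki67, a gene of dividing cells, 22 of the topoisomerase gene Top2a and 13 of Cenpf, which were 100% of the DA UMIs of these genes. The 10 LEW cells held 69.9% of Mki67, 96.8% of Top2a and 94.4% of Cenpf UMIs. Of these, 3 had UMIs of all 8 genes, with 22, 12 and 6 UMIs of Mki67, and lay at different places on the zonal axis, with Cyp2e1 at 9.17, 29.3 and 0.299 and Sds at 0, 0 and 4.19 UMIs per 10000. No test was made, since the cells were chosen by these genes.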
